A study of Homo sapiens with 2 samples.

Results

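Single-read stacks are places in the genome where the pooled Argonaute small RNA data held exactly 1 read. They were taken from the deposited list of read stacks as the stacks with a read count of 1 that lay outside the mitochondrial genome, carried no miRNA precursor on their own strand and had no tRNA, rRNA, snoRNA, snRNA or scRNA in their annotation. Of 502547 stacks in the list, 367336 met these conditions. Before the exclusions there were 367811 stacks of 1 read. Of these, 5 were mitochondrial, 164 lay over a miRNA precursor and 306 had a structural RNA item, 27 of which were repeats of the SINE/tRNA kind. The stacks were thus chosen by their read count and annotation, and the read count is given only as a description.

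Argonaute proteins hold small RNAs of about the length that Dicer cuts, mostly miRNAs, and carry them to target RNAs. A small RNA library from an Argonaute pulldown also holds short pieces of mRNAs, introns and other transcripts that do not pile up at any place. Stacks of a single read are the thinnest layer of such data, and their spread over exons, introns, strands and repeats describes what sparse reads look like in it.

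The libraries came from HEK293 T-Rex cells, derived from human embryonic kidney, in which AGO2 or AGO3 carried a FLAG tag. The tag was captured on magnetic beads from an NP40 lysate, and the bound RNA was ligated to adapters at both ends. There was 1 AGO2 library with 6674064 reads and 1 AGO3 library with 4667236 reads, 11341300 in all, and the 3′ adapter sequence differed between them. The stack list does not separate the proteins, and its 68649476 reads exceed those of both libraries. The sources used here do not say whether the cells were 1 clone or how strongly the tagged proteins were expressed. The comparison available is therefore between single-read stacks and larger stacks of the same list, as 1 sample with no replicate and no test. Shares are followed by exact (Clopper-Pearson) 95% intervals, which cover counting error only.

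The promoters of 3 genes are shown as examples from among genes with the most singles over a transcription start and genes with none. DNM2 encodes a dynamin that cuts vesicles from membranes, and SENP6 encodes a protease that removes SUMO chains. Each held 3 singles annotated as lying over a transcription start of the gene, the highest number for any gene. ALB encodes serum albumin, a liver protein, and held no single. Counting error lets a count of 0 stand for as many as 3, which is 0.000817% of the singles. The lines give the 250 bases before the start of the gene, 5′ to 3′, from RefSeq on build GRCh38.p14, with each CG dinucleotide in capitals. That start need not be the start annotated under each single.
DNM2, GRCh38.p14, chr19:10717829-10718078, + strand: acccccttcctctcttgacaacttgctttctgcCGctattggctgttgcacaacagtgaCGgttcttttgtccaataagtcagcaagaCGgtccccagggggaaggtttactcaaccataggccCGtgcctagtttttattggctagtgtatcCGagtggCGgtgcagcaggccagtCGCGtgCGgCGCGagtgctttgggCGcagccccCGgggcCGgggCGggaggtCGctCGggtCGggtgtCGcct
SENP6, GRCh38.p14, chr6:75601630-75601879, + strand: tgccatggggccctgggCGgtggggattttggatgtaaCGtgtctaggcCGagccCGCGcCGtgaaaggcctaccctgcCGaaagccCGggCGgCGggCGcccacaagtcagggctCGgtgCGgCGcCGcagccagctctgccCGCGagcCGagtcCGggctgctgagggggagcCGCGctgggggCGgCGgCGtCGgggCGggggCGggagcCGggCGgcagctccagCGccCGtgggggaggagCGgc
ALB, GRCh38.p14, chr4:73404037-73404286, + strand: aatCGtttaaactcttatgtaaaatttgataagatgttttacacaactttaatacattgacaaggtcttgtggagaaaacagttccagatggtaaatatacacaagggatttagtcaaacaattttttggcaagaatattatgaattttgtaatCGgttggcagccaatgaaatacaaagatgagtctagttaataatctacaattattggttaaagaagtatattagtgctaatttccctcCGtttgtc

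The word CG, which reads the same on both strands, occurred 19 times before DNM2, 32 times before SENP6 and 3 times before ALB. Among 35116 promoter windows of this length, the median was 11 occurrences, 34.7% of windows held at least 19, 9.52% held at least 32 and 77.1% held at least 3. The share of G and C was 60.8% for DNM2, 77.2% for SENP6 and 30% for ALB, against a median of 58.0% over all windows. Singles over a transcription start named 2903 genes, of which 9 had 3. Only 1916 of the 2903, or 66.0%, had a window under the same symbol in the table, and older symbols were not joined for this match. No promoter comparison was therefore made over the whole group.

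The singles annotated over a start of DNM2 lay at chr19:10828737-10828758, chr19:10828830-10828852 and chr19:10828868-10828884 on the plus strand of build hg19, the build of the stack list. They were 22, 23 and 17 bases wide, and the last had 1 edit. For SENP6, 2 of the singles lay at chr6:76311614-76311633 and chr6:76311638-76311661, and the third at chr6:76376584-76376605, all on the plus strand and without an edit. The third lay far from the other 2, so the 3 SENP6 singles need not share a start. The 3 singles of a gene did not overlap one another.

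Single-read stacks were the most common kind of stack and held few of the reads. They made up 73.7% (interval 73.5 to 73.8) of the 498676 stacks that passed the same exclusions, but 7.63% of the 4811565 reads in those stacks and 0.535% of all reads in the list. Just past the threshold, 55111 stacks held 2 reads. A further 31461 held 3 to 4 reads, 21188 held 5 to 9, 21347 held 10 to 99 and 2233 held 100 or more.

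Singles lay mainly within genes and in the direction of transcription. Of all singles, 69.2% were sense to a gene, with 31.5% (31.3 to 31.6) in an exon and 44.3% (44.1 to 44.4) in an intron, and 6.53% counted in both because genes and transcripts overlap. A gene lay on the antisense strand of 19.4%, an antisense annotation of any kind was given at 21.5%, and 17.9% (17.8 to 18.02) had no gene on either strand. Repeats were annotated at 24.1% (23.9 to 24.2). When each single was put in 1 class only, exons took 31.5%, introns without an exon 37.75%, sites antisense to a gene 12.9%, repeats outside genes 7.06% and sites with neither gene nor repeat 10.8%. Exonic singles were split over the mRNA, with 11.1% of all singles in coding exons, 10.8% in exons of the 3′ UTR and 2.99% in exons of the 5′ UTR.

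Set beside stacks of 2 or more reads, singles were less often exonic and more often intronic. Exons took 31.5% of singles and 42.15% (41.9 to 42.4) of the 131340 larger stacks, introns 44.3% of singles and 33.7% (33.4 to 33.95) of larger stacks, and repeats 24.1% of singles and 21.1% (20.9 to 21.4) of larger stacks. The exon and repeat differences turned round among stacks of 20 to 24 bases. There, exons took 31.95% (31.8 to 32.1) of singles and 27.35% (26.97 to 27.7) of larger stacks, and repeats 23.95% (23.8 to 24.1) of singles and 25.3% (25.0 to 25.7) of larger stacks. Introns kept their direction at that width, with 44.85% of singles and 38.7% of larger stacks. Larger stacks can be much wider than a read: the median width was 22 bases for singles and 25 for larger stacks, and the 95th percentile was 26 bases for singles and 54 for larger stacks. The limit of 20 to 24 bases kept 69.3% of singles and 40.1% of larger stacks. Width was taken over the whole stack, so the limit also selects larger stacks by shape. The reversal is therefore not one between otherwise matched stacks. Sites with no gene took 17.9% of singles and 19.7% of larger stacks at any width, and 17.3% of singles and 23.8% of larger stacks at 20 to 24 bases.

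**Figure D1:**
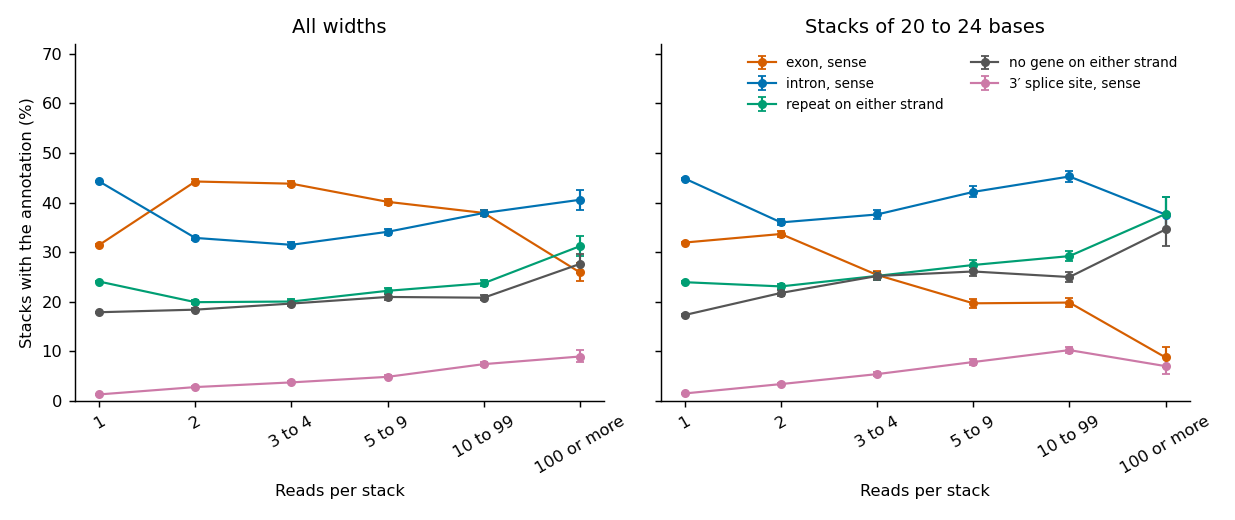
Share of stacks (%, vertical axis) with an annotation, by the number of reads in the stack (horizontal axis), for all widths on the left and for stacks of 20 to 24 bases on the right; bars are exact 95% intervals. At 20 to 24 bases exons took 31.95% of singles and 8.77% of stacks with 100 or more reads, and 3′ splice sites took 1.51% of singles and 10.25% of stacks with 10 to 99 reads.

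The plot of shares by reads per stack shows that stacks of 1 and of 2 reads were not alike. At any width, exons took 31.5% of singles and 44.3% of stacks of 2 reads. At 20 to 24 bases the exon share was 31.95% of singles and 33.7% of stacks of 2 reads. Among 20 to 24-base stacks of 100 or more reads, exons took 8.77% (6.90 to 10.95), against 37.7% in repeats and 34.6% with no gene.

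At any width transcript landmarks were rarer among singles than among larger stacks, which are wider, and at 20 to 24 bases the landmarks differed. The annotated 3′ splice site, where an intron ends, was touched on the sense strand by 4815 singles, or 1.31% (1.27 to 1.35), and by 4.21% (4.10 to 4.32) of larger stacks. At 20 to 24 bases the shares were 1.51% of singles and 5.58% (5.38 to 5.77) of larger stacks. Transcription starts took 0.776% of singles and 3.41% of larger stacks, and 0.808% of singles and 1.73% of larger stacks at 20 to 24 bases. Start codons took 0.326% (0.304 to 0.349) of singles and 0.456% (0.400 to 0.517) of larger stacks at that width. Polyadenylation sites, at 0.444% of singles and 3.07% of larger stacks at any width, took 0.482% (0.456 to 0.510) of singles and 0.494% (0.436 to 0.558) of larger stacks at 20 to 24 bases, and 5′ splice sites 0.624% (0.594 to 0.656) of singles and 0.705% (0.635 to 0.780) of larger stacks, with intervals that overlap. Stop codons turned round, with 0.223% of singles and 0.407% of larger stacks at any width, but 0.227% (0.209 to 0.247) of singles and 0.162% (0.129 to 0.200) of larger stacks at 20 to 24 bases. The window that the list uses for each landmark is not stated in the labels or the file.

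Most landmarks were strongly one-sided in singles. Exons held 6.39 times as many sense as antisense singles (115559 against 18086), introns 2.80 times (162644 against 58166), and 3′ splice sites 10.2 times (4815 against 474). Transcription starts stood at 2.82 (2852 against 1013), 5′ splice sites at 2.79 (2098 against 753), polyadenylation sites at 5.66 (1631 against 288), start codons at 5.15 (1134 against 220) and stop codons at 10.6 (819 against 77). The 500 bases after a gene held 17325 sense and 5758 antisense singles, a ratio of 3.01. The 500 bases of a promoter were close to even, with 19156 sense and 21085 antisense singles, a ratio of 0.908, and repeats likewise, at 0.944. The genome strand itself was nearly even, with 50.9% (50.7 to 51.0) of singles and 50.3% (50.1 to 50.6) of larger stacks on plus.

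**Figure D2:**
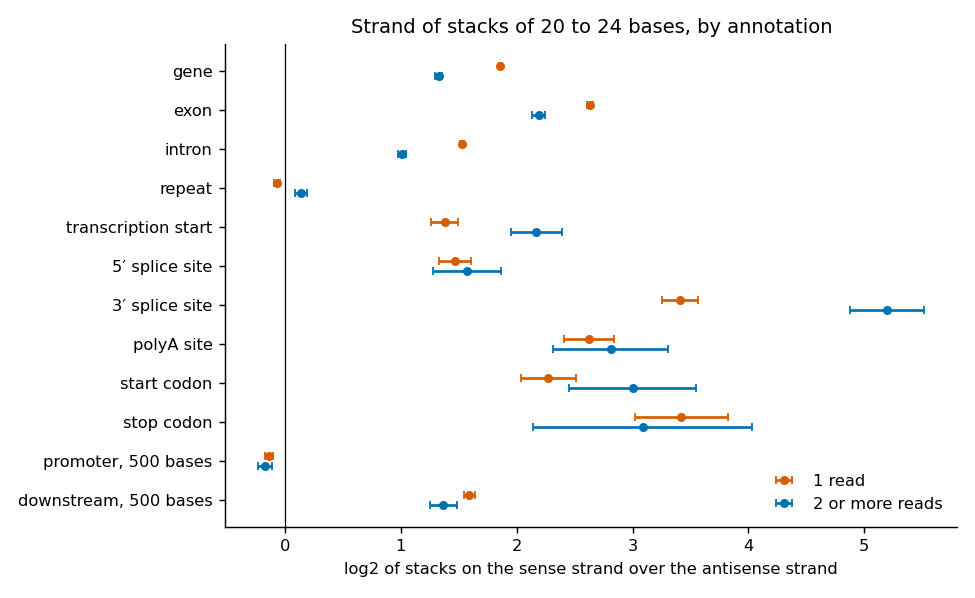
Log2 ratio of stacks on the sense strand over the antisense strand of each annotation (horizontal axis; 0 means equal numbers), for stacks of 20 to 24 bases with 1 read or with 2 or more reads; bars are 95% intervals from the counts. At 3′ splice sites there were 10.6 sense singles for each antisense one and 36.7 sense larger stacks for each antisense one, whereas repeats and promoters lay near 0 for both.

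The strand ratios of singles and larger stacks differed by landmark. At 20 to 24 bases, introns were more one-sided among singles (2.88 sense for each antisense) than among larger stacks (2.02). Exons stood at 6.22 among singles and 4.56 among larger stacks at that width, but at 6.39 among singles and 6.60 among larger stacks at any width. The 3′ splice site went the other way, with 10.6 among singles (3843 against 362) and 36.7 among larger stacks (2934 against 80), as did transcription starts, with 2.60 among singles and 4.50 among larger stacks. Where genes lay on 1 strand only, 82.9% (82.8 to 83.1) of singles and 80.6% (80.4 to 80.9) of larger stacks were sense. In exons of such places 90.1% of singles and 91.0% of larger stacks were sense, and in introns 79.1% of singles and 72.2% of larger stacks.

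Singles were mostly about as long as a miRNA. Widths ran over 15 to 33 bases with a median of 22, and 69.3% (69.2 to 69.5) were 20 to 24 bases wide. The most common widths were 21 bases with 59026 singles (16.1%) and 22 bases with 58097 (15.8%), followed by 20 bases with 52555 and 23 bases with 48355. Widths of 15 to 19 bases took 18.3% and widths of 28 or more 1.04%. Classes differed at the short end. Reads of 15 to 19 bases were 14.3% of exonic, 16.4% of intronic, 25.1% of antisense, 22.95% of repeat-only and 24.9% of gene-free and repeat-free singles, while 20 to 24 bases took between 67.05% and 70.4% in each class. The exonic share accordingly varied with width: it was 19.9% at 15 bases, 25.02% at 19, 30.6% at 22 and 40.3% at 24, while the share with no gene was 28.4% at 15 bases and 12.9% at 24.

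An edit is a difference from the reference genome as the stack list counts it. It was found in 79433 singles, or 21.6% (21.5 to 21.8), of which 4283 (5.39%) were also counted as a conversion, and 1 single had 2 edits. Per 100 reads there were 21.6 edits in singles, 23.1 in stacks of 2 reads, 24.3 in those of 3 to 4, 25.6 in those of 5 to 9, 26.6 in those of 10 to 99 and 63.5 in those of 100 or more. The classes of singles differed, with edits in 15.45% of exonic, 19.6% of intronic, 29.8% of antisense, 33.3% of repeat-only and 29.4% of gene-free and repeat-free singles.

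**Figure D3:**
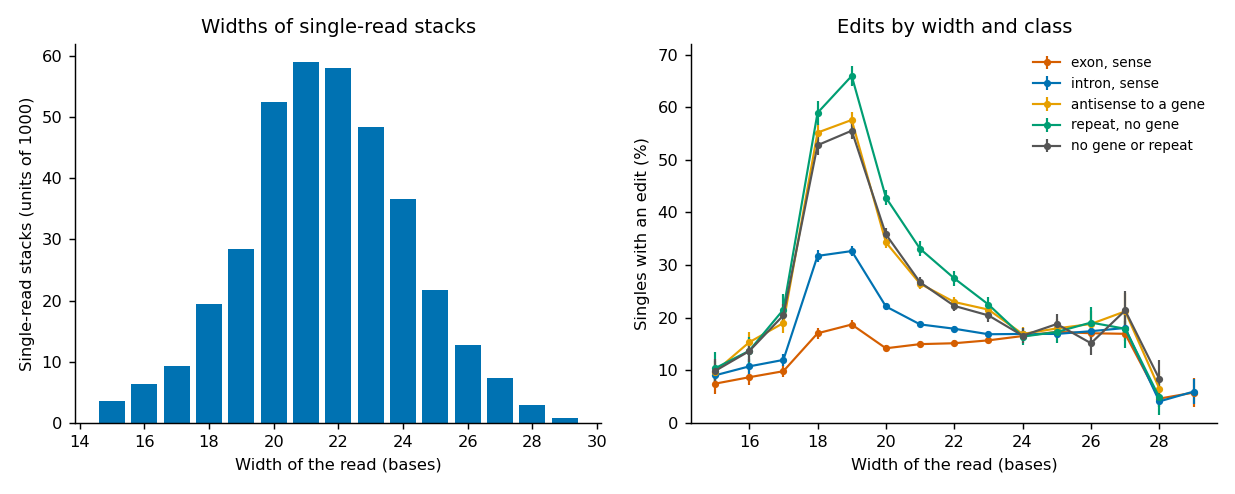
Number of single-read stacks by read width (left; in units of 1000 stacks, against bases), and share of singles with an edit by read width (right; percent against bases) for 5 classes, with normal 95% intervals. At 19 bases the share with an edit was 18.7% in exons and 65.9% in repeats outside genes, and at 24 bases all 5 classes lay between 16.4% and 16.9%.

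Width and edits moved together. Edits were found in 12.7% (12.3 to 13.2) of singles of 15 to 17 bases, 38.7% (38.3 to 39.1) of those of 18 to 19, 17.8% (17.6 to 17.9) of those of 22 to 27 and 5.40% (4.71 to 6.16) of those of 28 or more. Among widths of up to 29 bases, neighbouring widths differed most between 17 and 18 bases, with 14.6% edited at 17 and 38.1% at 18. They also differed between 19 and 20 bases, with 39.1% edited at 19 and 25.3% at 20, and between 27 and 28 bases, with 18.03% edited at 27 and 4.80% at 28. At 19 bases 18.7% of exonic, 55.5% of gene-free and repeat-free and 65.9% of repeat-only singles were edited. At 22 to 27 bases the classes lay closer, at 16.1% of exonic, 17.3% of intronic, 20.9% of antisense, 22.3% of repeat-only and 19.98% of gene-free and repeat-free singles. The part of mapping and of the mismatches it allowed in these values was not tested.

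The mapping grade of the list followed width as well. The grade named UNIQ40 was held by 59.7% of singles, never below 20 bases without an edit and never below 22 bases with one. Its singles had a uniqueness score of at least 40, against at most 39 in the other grade. In UNIQ40 singles without an edit the score was exactly 2 times the width. The grade is thus tied to width and edits by its score, and its width limits are no separate result. It was held by 70.5% of exonic, 61.1% of intronic, 48.4% of antisense, 34.9% of repeat-only and 53.5% of gene-free and repeat-free singles. Among UNIQ40 singles 37.1% were exonic, 17.75% lay in repeats and 12.35% had an edit.

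Repeats under singles were chiefly L1 elements, Alu elements and MIR elements. L1, a retrotransposon of the LINE class, was annotated at 20708 singles (5.64%), Alu, a short primate retrotransposon, at 17012 (4.63%) and MIR, an old mammalian SINE, at 9675 (2.63%). L2 followed with 8345, low-complexity sequence with 5969, the ERVL-MaLR group of LTR elements with 5286 and the hAT-Charlie DNA transposons with 5009. By single names, MIRb led with 3656 singles, then L2a with 3254, MIR with 2984, AluJb with 2811, GC_rich with 2652, L2c with 2348, AluSx with 1816, AT_rich with 1721, L2b with 1652 and AluJr with 1649.

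Orientation to the repeat depended on the family and on whether a gene was there. L1 singles were sense to the element in 41.9% (41.2 to 42.6), Alu singles in 53.2% (52.4 to 53.9) and MIR singles in 54.35% (53.4 to 55.3). Among singles sense to a gene, L1 was sense in 30.3% (29.5 to 31.1) and ERVL-MaLR in 31.8% (30.04 to 33.6), against 47.7% for Alu and 53.5% for MIR. Among singles with no gene, L1 was sense in 52.5% (51.25 to 53.7) and ERVL-MaLR in 50.55% (48.3 to 52.8). Gene-free L1 singles of the UNIQ40 grade stood at 41.9% (39.75 to 44.1), so the even orientation outside genes did not hold for them. Larger stacks were sense more often in all 3 leading families, at 41.9% of singles and 52.25% (50.8 to 53.7) of larger stacks for L1, 53.2% of singles and 60.0% of larger stacks for Alu, and 54.35% of singles and 62.7% of larger stacks for MIR.

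The chromosomes differed in the density of singles. Chromosome 19 held 336 singles per Mb of the span its stacks cover, chromosome 17 held 252, chromosome 22 held 251 and chromosome 16 held 164. The lowest densities were 77.4 on the X chromosome, 78.4 on chromosome 4 and 82.0 on chromosome 18. Larger stacks were ordered much the same, with 147 per Mb on chromosome 19 and 24.9 on chromosome 4. The number of singles for each larger stack ranged between 2.28 on chromosome 19 and 3.145 on chromosome 18. The exonic share of singles was highest on chromosome 17, at 37.6%, and lowest on chromosome 13, at 25.7%.

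**Figure D4:**
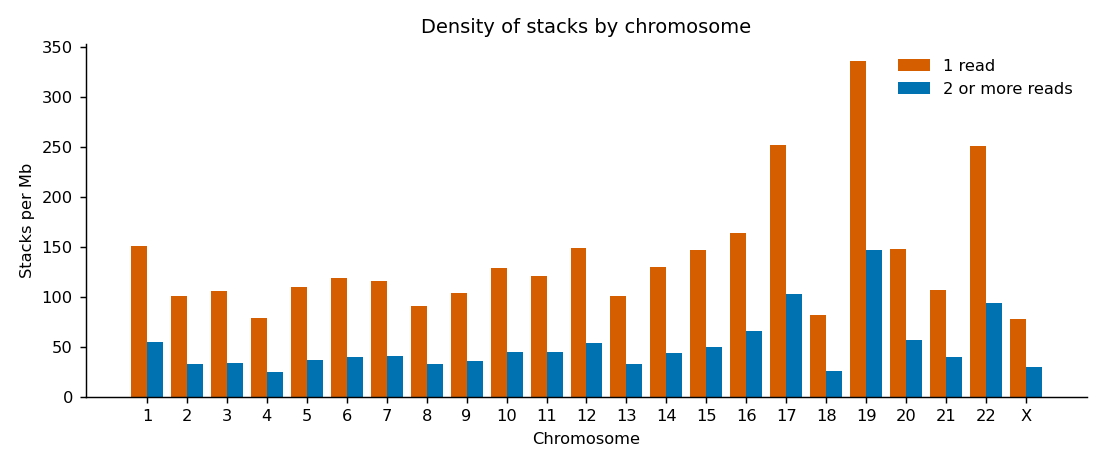
Stacks per Mb (vertical axis) on each chromosome, with single-read stacks in the left and stacks of 2 or more reads in the right bar of each pair. Chromosome 19 held 336 singles and 147 larger stacks per Mb, and chromosome 4 held 78.4 singles and 24.9 larger stacks per Mb.

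Singles lay near other stacks, few of which were deep. The median gap to the nearest other stack was 325 bases on either strand and 470 bases on the same strand, and 65.4% of singles had another stack within 1 kb. The median gap to the nearest stack of 100 or more reads was 223896 bases, and 2.03% of singles had one within 1 kb. Only 2233 of the 498676 stacks under the same exclusions were that deep, and deep stacks removed by the exclusions were counted here too. The share for evenly spread places was not computed, so closeness to deep stacks was not judged. Another stack lay within 1 kb of 89.7% of exonic, 62.0% of antisense, 55.6% of intronic, 55.3% of gene-free and repeat-free and 31.2% of repeat-only singles. A stack on the other strand overlapped 2.98% (2.93 to 3.04) of singles and 6.84% (6.71 to 6.98) of larger stacks, which are wider.

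Singles touched most of the genes in the list and were thinly spread over them. On the sense strand 21861 gene symbols had at least 1 single, with a median of 7 and a 95th percentile of 42, and 4172 symbols had exactly 1. Only 74 genes had 100 or more. Across 23203 genes Spearman's rank correlation was 0.673 between a gene's sense singles and its reads in larger stacks, and 0.782 between its sense singles and its number of larger stacks. These counts come from the same pooled list and share gene length and depth, and genes are not independent replicates.

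The genes with the most singles were mostly read in introns. ERC1, a scaffold protein of the cell cortex, led with 254 sense singles (exact Poisson interval 224 to 287), 28 in exons and 226 in introns, at chr12:1100472-1604869. It was followed by AUTS2, a nuclear regulator of brain development, with 231, of which 214 were intronic. SLIT2, a secreted guidance cue for axons, had 214, spread over chr4:20255079-20622096 with 33 in exons, and only 8 antisense. AGAP1, a regulator of vesicle traffic, had 208 and DIP2C had 203. EIF4G3, a scaffold of translation initiation, and ERBB4, a receptor tyrosine kinase, had 176 each, with 6 antisense singles in EIF4G3 and 11 in ERBB4. The receptor phosphatase PTPRG had 167, and PRKG1, a cGMP-dependent kinase, and WWOX, an oxidoreductase in a fragile site, had 162 each. EFNA5, a ligand of Eph receptors, had 158. CUX1, a transcription factor, and the adhesion protein SDK1 had 152 each, FHIT, in another fragile site, 150 and TRIO, a guanine nucleotide exchange factor, 149. SDK1 and FHIT were nearly pure intron genes, with 149 of 152 and 147 of 150 sense singles intronic.

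**Figure D5:**
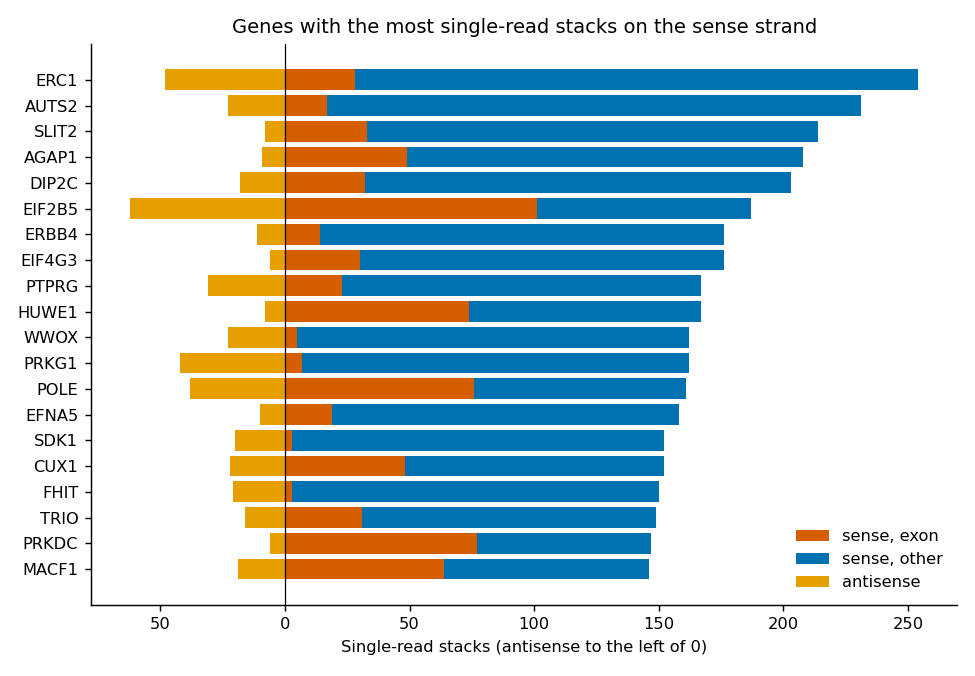
Single-read stacks in the 20 genes with the most on the sense strand, split into exonic and other sense singles to the right of 0 and antisense singles to the left. ERC1 held 254 sense and 48 antisense singles, and PRKDC held 147 sense singles of which 77 were exonic.

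A smaller set of the leading genes was read about equally in exons and introns. HUWE1, a very large ubiquitin ligase, had 167 sense singles, 74 of them exonic. PRKDC, the catalytic subunit of DNA-dependent protein kinase, had 147 with 77 exonic, and MACF1, which links actin and microtubules, 146 with 64 exonic. POLE, the catalytic subunit of a replicative DNA polymerase, had 161 with 76 exonic, but 85 of the 161 also carried another gene's name. EIF2B5, a subunit of a translation initiation factor, had 187, of which 157 also carried another name, such as 53 with EIF4G1, 19 with PSMD2 and 18 with AP2M1. Its count is therefore uncertain as its own.

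By exonic singles alone, NEAT1 led. This nuclear long noncoding RNA, which builds paraspeckles, held 142 singles within chr11:65190403-65212952, every one exonic, with 1 antisense. After EIF2B5 with 101 came MLL2, a histone methyltransferase gene, with 83 exonic of 106 sense singles at chr12:49412853-49449105, and SPEN, a transcriptional repressor, with 77, equal to PRKDC. POLE and TNRC6B had 76 each, HUWE1 74 and WNK1 68. Over the 2412 genes with at least 30 sense singles, the median exonic share was 42.9%; 32 genes were over 90% and 132 under 10%. The median antisense share in these genes was 9.76%, and 113 had no antisense single.

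Antisense singles were highest at symbols that overlap another gene on the opposite strand. BCYRN1 had 133, of which 65 were sense to OGT, the enzyme that adds O-linked GlcNAc, 27 to TAF1 and 23 to NONO. All 126 at HOXB-AS3 were sense to HOXB3, and 56 of the 58 at HOXA-AS3 were sense to HOXA3, both homeobox transcription factor genes. RP11-712B9.2 had 65, of which 64 were sense to SESN3, a stress-induced sestrin. RP11-68I3.2 had 83, of which 35 were sense to SSH2 and 20 to GIT1, and RNU5F-1 had 62, of which 44 were sense to EPRS, a tRNA synthetase. The symbol BCYRN1 spanned 408 kb in this list and RNU5F-1 spanned 194 kb. Their counts therefore describe wide symbols of the annotation and not small RNAs of those names. AVL9 had 59, of which 22 were sense to KBTBD2, and EIF2B5 had 62, of which 11 were sense to ALG3. For TBC1D5, with 75, and BCOR, a transcriptional corepressor with 62, the strand of the antisense singles carried no gene symbol counted here.

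Gene lists by role showed how wide the spread was. Over all 26347 genes named in the list of stacks, 81.2% held at least 1 sense single, 62.4% at least 1 exonic single, 68.9% at least 1 intronic single and 72.6% at least 1 antisense single, and the median gene had 4 sense singles. All 14 genes of the miRNA machinery held exonic singles. TNRC6B, a GW182 protein that joins Argonaute to the silencing machinery, had 136 sense singles, 76 of them exonic and 7 antisense. DICER1, which cuts pre-miRNAs, had 67 with 39 exonic and 1 antisense. TNRC6A had 55 with 22 exonic, and XPO5, the exporter of pre-miRNAs, 51 with 22 exonic.

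Lists of genes used by most cells differed in how many members were reached. Exonic singles were found in 21 of 21 snoRNA host genes, 14 of 14 translation factors, 36 of 38 abundant mRNAs, 22 of 24 miRNA host genes, 29 of 34 ribosomal protein genes and 14 of 20 histone genes. The members with no name anywhere in the list of stacks were 2 abundant mRNAs, 2 miRNA hosts, 1 ribosomal protein gene and 1 histone gene. Of the 19 histone genes named, 73.7% held an exonic single, against 62.4% of all named genes. The median number of sense singles was 40.5 for the miRNA machinery, 24.5 for miRNA hosts, 21.5 for translation factors, 19 for abundant mRNAs, 15 for snoRNA hosts, 8.5 for ribosomal proteins and 2.5 for histones. Ribosomal protein and histone genes are short, and no length of build hg19 was at hand to scale by. Among abundant mRNAs after PRKDC, DYNC1H1, the dynein heavy chain, had 99, FASN, the fatty acid synthase, 94 and FLNA, an actin crosslinker, 81. Among translation factors EIF4G1 had 53, EIF3B 45, EIF3A 43 and EIF4G2 34, and all of those of EIF4G1 also carried another name. Among snoRNA hosts TNPO2 had 41, NCL 34, DKC1 33 and EEF2 23. Ribosomal protein genes were led by RPL37A with 27, RPL27A with 24, and RPL3 and RPS24 with 19 each. H1F0 led the histones with 12, all exonic, followed by HIST1H2BK with 9. HUWE1, DLEU2 (66), PTK2 (65) and SREBF2 (64) led the miRNA hosts.

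Exonic singles were found in 9 of 11 long noncoding RNAs (81.8%), against 62.4% of all named genes. The long noncoding RNAs summed to 296 exonic and 134 intronic singles, and NEAT1 alone gave 142 of the exonic ones. After NEAT1, FTX and JPX had 74 sense singles each, with 13 exonic in FTX and 28 in JPX, and OIP5-AS1 had 27 with 23 exonic. MALAT1 had 25, all exonic. Of 35 very long genes, 35 held intronic singles, against 68.9% of all named genes. Exonic singles were held by 19 of the 35 (54.3%), against 62.4% of all named genes, and none had more exonic than intronic ones. The very long genes summed to 98 exonic, 1784 intronic and 710 antisense singles, with a median of 32 sense and 21 antisense singles per gene. The antisense number was close to the sense number in several of them, such as CSMD1 with 25 sense and 23 antisense, DLG2 with 26 sense and 27 antisense and EYS with 25 sense and 28 antisense. It was far lower in AUTS2 with 231 sense and 23 antisense, IMMP2L with 122 sense and 16 antisense and LRP1B with 99 sense and 15 antisense.

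Genes typical of other tissues held few singles. Of 32 genes of liver, blood, pancreas, muscle, immune cells, skin and retina, 23 were named anywhere in the list of stacks. A sense single was held by 15 of the 23 (65.2%) and an exonic one by 5 (21.7%), against 81.2% with a sense and 62.4% with an exonic single over all named genes. They summed to 34 sense singles. TTN, the giant muscle protein titin, had 6 sense and 32 antisense singles, and 31 of the 32 were sense to TTN-AS1. NEB, another giant muscle protein, had 5, and CYP3A4, a liver enzyme, and KRT10, a skin keratin, had 3 each. The liver gene APOB held no single on either strand, though larger stacks with its name held 202 reads.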

How the data were processed

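The deposited list gives, per the file headers and fields, 1 line per read stack with its position in build hg19, strand, raw read count, width, edits, mapping grade and annotation on both strands. A score per stack, the entropy of its reads, was deposited by the authors too and was not used. The submitters' processing notes name Bowtie2 2.1.0 and hg19 but not what each was used for. The libraries pooled, the mismatches allowed, the treatment of the random bases and the annotation release were not given in the sources used here. The deposited counts per miRNA precursor gave only library sizes.

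Shares, exact 95% intervals and counts per gene symbol were computed with scipy 1.17.1, pandas 2.3.3 and numpy 2.4.6 in Python 3.11.15, and plots with matplotlib 3.10.9. Without molecular identifiers, reads are not independent molecules. The parser was tested on simulated data. Older symbols were joined through RefSeq synonyms for the gene lists and the shares over all named genes, with the highest count among joined symbols. Counts of symbols, gene ranks and the promoter match used symbols as listed. TCONS entries were left out, and a single with several symbols counted for each. Coding and UTR shares used exonic singles with no intron item. Genes named are the 20 with the most sense, the 10 with the most exonic and the 10 with the most antisense singles, 10 repeat names and up to 4 members of each of 10 lists; 1 gene under this rule is not reported here. CSMD1, DLG2, EYS, IMMP2L, LRP1B, MALAT1, APOB, ALB, DNM2 and SENP6 were chosen after their values were seen. Members and lists were chosen with earlier results of these data known.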

Additional observations from a re-analysis of the deposited data

How the results depend on the processing

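Taking stacks of 2 reads in place of 1 moved every result: they were 11.05% of stacks, with 44.3% exonic, 32.9% intronic, 23.97% antisense, 18.4% with no gene, 19.9% in repeats, 50.45% on plus, 34.6% edited, 81.7% sense where genes lay on 1 strand, a median width of 24 bases, 13364 sense genes and 62.3% of list members with an exonic single. In the singles as defined, the last 2 values were 21861 genes and 74.6%. Those 2 values came from 55111 stacks of 2 reads, against 367336 singles, and fewer stacks can reach fewer genes. The edited share counts stacks with any edit, and a stack of 2 reads has more reads to hold one. Per 100 reads there were 23.1 edits in stacks of 2 reads and 21.6 in singles. Singles with no other stack within 1 kb moved as far: 80.9% of stacks, 9.39% exonic, 50.7% intronic, 18.8% antisense, 28.01% with no gene, 39.7% in repeats, 51.1% on plus, 29.97% edited, 79.2% sense, a median of 21 bases and 19.9% of list members. There were 127164 such singles.

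Without edits the values were 81.8% of stacks, 33.9% exonic, 45.8% intronic, 20.6% antisense, 15.8% with no gene, 22.8% in repeats and 85.1% sense. Outside repeats they were 72.9% of stacks, 38.8% exonic, 42.4% intronic, 21.9% antisense, 14.3% with no gene, 20.3% edited and 84.3% sense. At 20 to 24 bases they were 82.9% of stacks, 31.95% exonic, 44.85% intronic, 17.3% with no gene, 20.02% edited and 83.4% sense. Autosomes alone gave 17.6% with no gene and 23.9% in repeats, and no exclusion by annotation gave 73.2% of stacks. Singles of the UNIQ40 grade, an alternative chosen after seeing the data, were 69.25% of stacks, 37.1% exonic, 46.3% intronic, 19.96% antisense, 13.8% with no gene, 17.75% in repeats, 12.35% edited and 86.8% sense, with a median of 23 bases. The UNIQ40 grade is tied to width and edits by its score. Shares given here moved beyond their counting interval. The shares of stacks without edits and at 20 to 24 bases rose by construction of the filters. An edit was found in 51.4% of larger stacks and 21.6% of singles. Widths of 20 to 24 bases were held by 40.1% of larger stacks and 69.3% of singles. The cause of the other moves was not tested.

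The comparison at 20 to 24 bases was also chosen after seeing the data, and its limit selects larger stacks by shape as well as width. Singles minus larger stacks came to 4.6 percentage points for exons, against -10.7 at any width, and to -1.39 for repeats, against 2.94. By construction, singles without edits give no edit share and singles outside repeats no repeat share. No paired analysis was possible because the list pools libraries and holds no replicates.

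The list is 1 pooled sample of unnamed libraries, so no value here has a replicate error and AGO2 cannot be told apart from AGO3. A single read cannot be told from a misplaced one. Counts per gene were not scaled by length, and symbols that span other genes share singles with them.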

Other observations

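Of the singles, 128 lay antisense to a miRNA precursor, which the exclusions did not remove because they concern the sense strand. A further 264 lay on unplaced or alternative sequences of the genome build and were kept in all shares. Every stack of the list, whatever its read count, had a library support of 1 in the field of that name. On the sense strand 4.88% of singles carried 2 or more gene symbols and 68.4% carried at least 1.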
